A study of Oryza sativa with 51 samples.

Results

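The comparison sets the rice hybrid LY2186 against MH86, its restorer parent, in the hours around dawn. Its members were chosen by line and hour alone: the libraries taken at Zeitgeber time (ZT) 21, 24, 45 and 48 and at ZT0, which makes 10 of the 51 libraries, 5 of LY2186 and 5 of MH86. Zeitgeber time is counted in hours from ZT0, by convention the start of the light; the light schedule and the clock time of sunrise are not in the labels, so ZT0, ZT24 and ZT48 are taken as dawn and ZT21 and ZT45 as the last samples before it. Both groups were flag leaves, the uppermost leaf of the rice plant, taken at the grain-filling stage from lines grown in the field under shared conditions; the labels name no treatment and no transgene. The other parent of LY2186 is the sterile line SE21s, and both groups therefore carry MH86 alleles, LY2186 beside those of SE21s. Libraries were made from total RNA with a strand-specific kit. There was 1 library per line and hour, and the number of plants in a library is not stated. The 5 hours stand in for replicates here: the p-values measure the spread of the LY2186 minus MH86 difference over 5 hours, which may be technical and also holds real change from hour to hour.

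The antenna proteins, encoded by the LHCA genes of photosystem I and the LHCB genes of photosystem II, bind chlorophyll and carotenoids and pass light energy to the reaction centres, and their mRNAs in plants fall at night and climb again from the end of the night under the circadian clock and the morning light. The plant clock is a loop of repressors, in which LHY acts in the morning and the evening complex of LUX and ELF3 acts at night, so the hours around dawn are where one set hands over to the other. Carbon fixation by the Calvin cycle, photorespiration and the making of chlorophyll depend on nuclear genes that are also tied to light.

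Expression is given in FPKM, a fragment count scaled to transcript length and library size. Of 16842 genes whose average across the 51 libraries reached 1 FPKM, 2842, or 16.9%, differed between LY2186 and MH86 around dawn. Each LY2186 library was set against the MH86 library of the same hour on the log2(FPKM + 0.5) scale with limma, and called at a Benjamini-Hochberg adjusted p under 0.05. Of these, 1486 (8.82% of the genes tested) were higher in LY2186 and 1356 (8.05%) lower. A difference of at least 2-fold was reached by 603 of the higher and 317 of the lower genes. The median difference over all genes tested was -0.05, with quartiles of -0.26 and 0.19, so the 2 lines were on nearly the same scale. The share of calls that were higher was 52.3%, and between 49.6% and 57.7% under 3 other scalings. The filter passed a gene with a mean of 1.0004 FPKM and stopped one at 0.99995. Counts depend on single hours: 1516 genes were called without the ZT0 pair, 1400 without the ZT24 pair and 1693 without the ZT48 pair. Without ZT45 and ZT48 together, an alternative added after seeing the libraries, 937 were called.

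The libraries themselves were alike in most respects. Between 15797 and 16246 genes reached 1 FPKM in each, and the upper quartile of the genes tested lay between 28.5 and 32.2 FPKM. The 3 most abundant loci took 43.4% to 52.6% of the FPKM sum in MH86 and 41.4% to 65.1% in LY2186, where ZT45 (65.1%) and ZT48 (64.4%) stood highest; what part this has in the results was not tested beyond leaving those pairs out. The number of fragments behind a value is unknown. As a check on the tissue, 4 of 7 grain markers were listed at 0 in all 10 libraries (the glutelin genes GluB1 and GluB4, the globulin GLB1 and the oleosin OLE18). The glutelin genes GluA1 and GluA2 were above 0 in all 10. GluA1 lay at 0.2746 to 1.229 FPKM in LY2186 and 0.7495 to 1.318 FPKM in MH86, and GluA2 at 1.07 to 1.949 FPKM and 0.922 to 2.073 FPKM. OLE16 was at 0 in LY2186 and at most 0.5245 FPKM in MH86. The 7 together summed to 1.46 to 3.14 FPKM in LY2186 and 1.71 to 3.39 FPKM in MH86. Of 9 floral organ MADS genes, MADS6 and MADS7 were at 0 in all 10, and the sum was 21.9 to 33.2 FPKM in LY2186 and 21.2 to 38.4 FPKM in MH86. Other floral genes were read in every library. MADS16 lay at 12.57 to 18.81 FPKM in LY2186 and 11.55 to 15.1 FPKM in MH86. MADS1 lay at 4.346 to 8.792 FPKM in LY2186 and 3.915 to 17.45 FPKM in MH86, and MADS2 at 3.621 to 5.281 FPKM and 4.572 to 7.525 FPKM. None of the 2 grain and 4 floral markers that were tested was called.

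The antenna genes carried the largest difference of the 25 gene lists examined, which were chosen with earlier results of these data known. Of 14 members, all of them tested, 13 were higher in LY2186 and none was lower, beside 8.82% and 8.05% of all genes. PSBS1, which is not an LHCA or LHCB gene, is on this list and is counted with the antenna genes here and below. Their median difference was 2.53 on the log2 scale, beside -0.05 for all genes tested. The same 13 were higher in LY2186 in 5 of 5 pairs, which held for 2356 of all genes (14%). In a leaf sample, fewer cells of a type and less RNA per cell cannot be told apart.

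LHCA1 (LOC_Os06g21590), a photosystem I antenna protein, stood at ZT0, ZT21, ZT24, ZT45 and ZT48, in that order here and below, at 120.1, 32.4, 77.2, 14.9 and 39.1 FPKM in LY2186 and 12.3, 4.76, 11.4, 1.34 and 3.96 FPKM in MH86. The lowest LY2186 library lay above the highest MH86 library, the one antenna gene whose groups were wholly apart, as was so for 3.73% of all genes. The difference was 2.96 ± 0.12 (log2, mean of 5 pairs ± limma's standard error), with an adjusted p of 1.53e-05 in limma. Here and below, that standard error rests on a spread that limma draws toward that of genes of like level. In tests between periods it comes from the fits on 34 libraries. LHCB6 (LOC_Os04g38410), a minor antenna protein of photosystem II, measured 369, 66.4, 189, 26.7 and 64.7 FPKM in LY2186 and 44.7, 12.9, 29, 3.24 and 7.29 FPKM in MH86 (2.79 ± 0.13, adjusted p = 2.24e-05). The ranges overlapped, both lines were lower before dawn than at ZT0 and ZT24, and LY2186 was higher at each hour. LHCA4 (LOC_Os08g33820), which pairs with LHCA1 in the photosystem I antenna, gave 288, 21.2, 284, 12.8 and 117 FPKM in LY2186 and 38.8, 3.34, 23, 1.62 and 17.6 FPKM in MH86 (2.86 ± 0.16, adjusted p = 7.47e-05). For LHCB4 (LOC_Os07g37240), another minor photosystem II antenna protein, the means were 147 FPKM against 23.6 FPKM (2.86 ± 0.21, adjusted p = 0.000294).

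**Figure D1:**
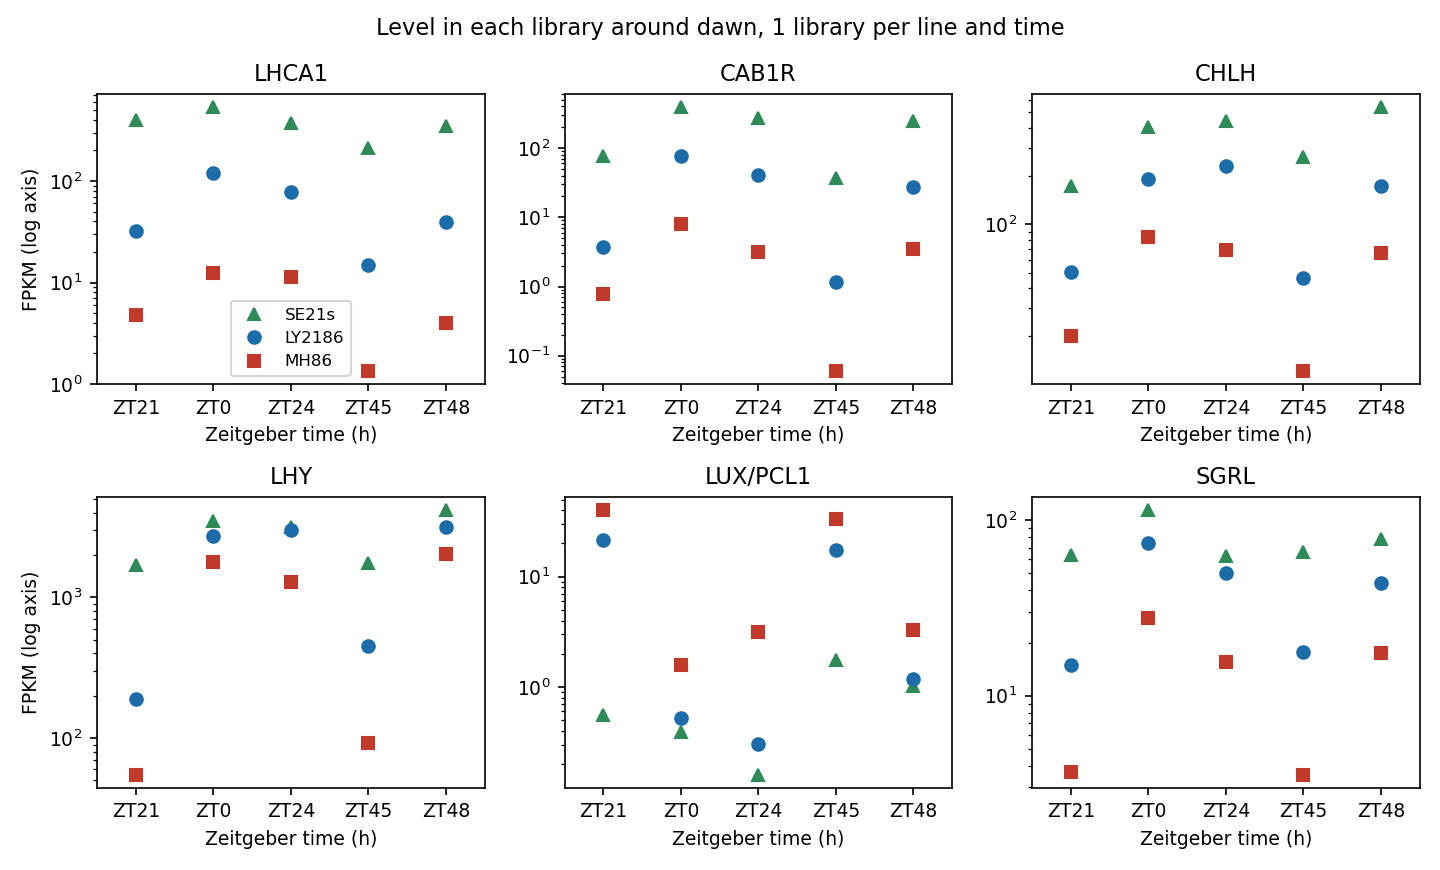
FPKM (log axis) of 6 genes in the libraries of SE21s (triangles), LY2186 (circles) and MH86 (squares) around dawn, with Zeitgeber time on the horizontal axis and 1 library per point. LY2186 lies above MH86 at all 5 hours for LHCA1, CAB1R, CHLH, LHY and SGRL and below it at all 5 for LUX/PCL1, and for LHCA1 the LY2186 points never fall to the level of the highest MH86 point.

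Levels of the major light-harvesting genes of photosystem II differed widely between the hours. CAB1R (LOC_Os09g17740), which encodes a major chlorophyll a/b-binding protein, went from 1.16 FPKM at ZT45 to 27 FPKM at ZT48 in LY2186, and from 0.0599 to 3.43 FPKM in MH86. Its 5 values were 76.3, 3.72, 40.4, 1.16 and 27 FPKM in LY2186 and 8.07, 0.79, 3.11, 0.0599 and 3.43 FPKM in MH86. LHCB2 (LOC_Os03g39610), a second component of the major antenna, read 115, 2.04, 63.5, 0.931 and 20.9 FPKM in LY2186 and 5.17, 0.772, 2.61, 0.632 and 1.86 FPKM in MH86. Before dawn both lines held under 3 FPKM of LHCB2; at ZT0, ZT24 and ZT48 every LY2186 value was above every MH86 value. CAB2R was the member that was not called, at 1.65 ± 0.67 with an adjusted p of 0.146, higher in LY2186 in 4 of 5 pairs. The smallest differences were those of LHCA5, a minor photosystem I antenna gene, at 0.74 ± 0.16, and PSBS1, needed to shed excess light as heat, at 1.26 ± 0.31; both were called (adjusted p = 0.0238 and 0.0355). Antenna genes form a family of similar sequences, and how the deposited values share fragments that map to several members is not stated, so the split between members is uncertain. With each pair left out in turn, LHCA1, LHCB6, LHCA4 and LHCB4 stayed called in all 5 fits. The count of 13 higher members ran from 9 to 11 with 1 pair left out and was 7 without ZT45 and ZT48. It was 7 with no filter on low values. With no block by hour, so that the change from hour to hour counts as spread, 1 of the 14 was called.

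**Figure D2:**
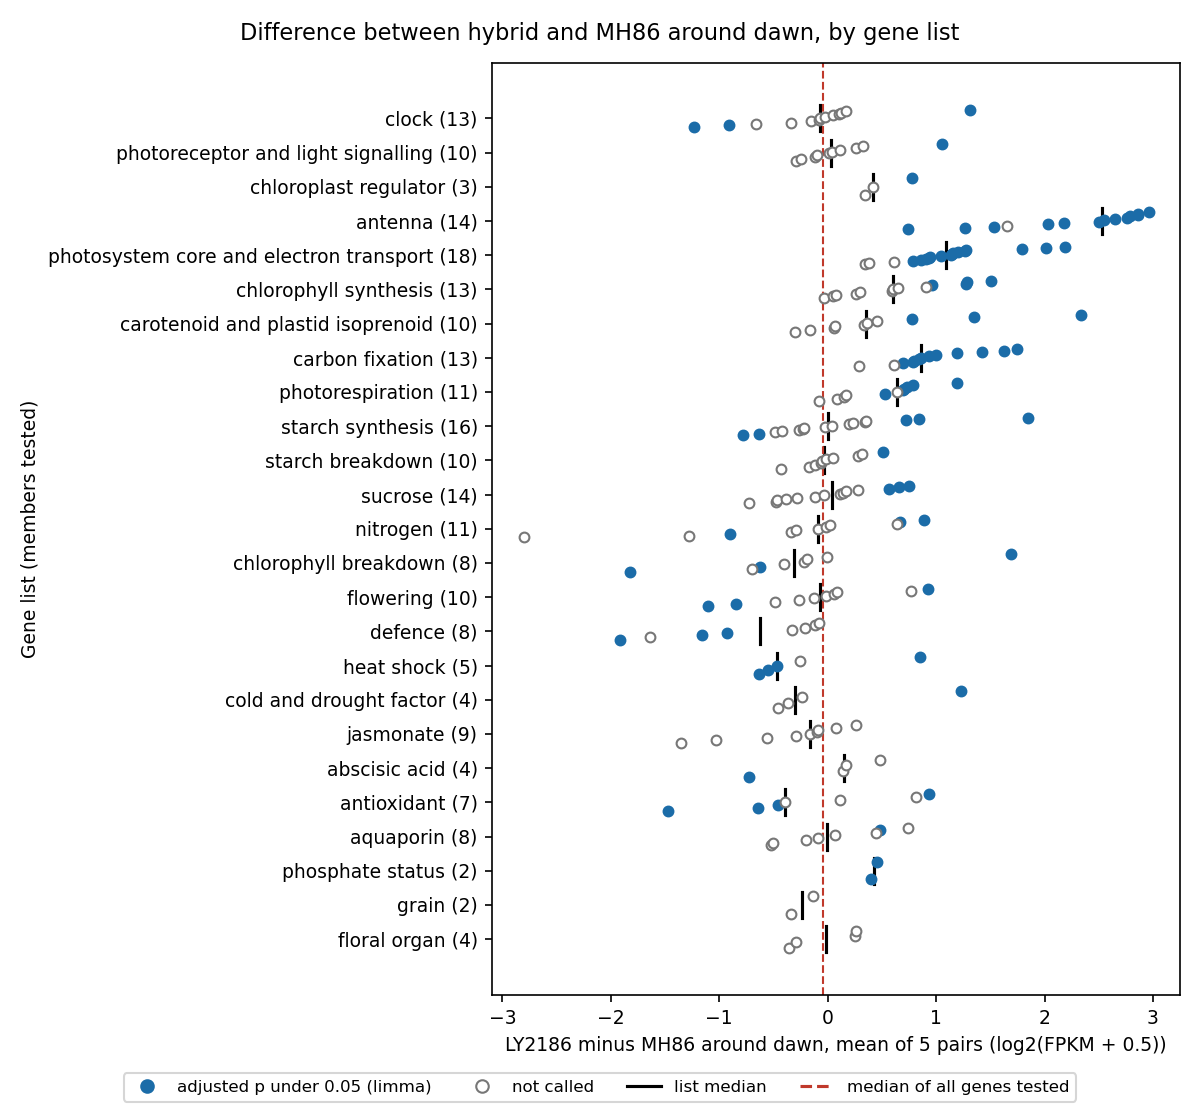
LY2186 minus MH86 around dawn (horizontal axis, mean of 5 pairs in log2(FPKM + 0.5)) for the tested members of 25 gene lists (vertical axis, number tested in brackets), filled where limma's adjusted p was under 0.05, with list medians as bars and the median of all genes tested as a dashed line. The antenna, photosystem and carbon fixation lists lie to the right, with medians of 2.53, 1.09 and 0.86, and most other lists straddle the dashed line.

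The antenna difference was not of equal size through the day. Measured in the same way at 6 day hours (ZT3, 6, 9, 27, 30 and 33), the median difference of the 14 genes was 0.42, and at 6 hours of dusk and night (ZT12, 15, 18, 36, 39 and 42) it was 0.78. Hour by hour, the median stood at 2.55 at ZT0, fell to 0.99 at ZT3 and 0.48 at ZT6, and was 1.63 at ZT21 and 2.69 at ZT24. On the next day it went from 0.01 at ZT27 back to 2.19 at ZT45 and 2.49 at ZT48. A test of the difference between dawn and day called 147 genes, 0.873% of the 16842. Of these, 98 (0.582% of the genes tested) had a LY2186 minus MH86 difference that was higher at dawn than by day, and 9 of the 14 antenna genes were among them.

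For LHCA1 the dawn difference exceeded the day difference by 2.52 ± 0.22, adjusted p = 1.68e-05 (limma interaction over 34 libraries). CAB1R, at 2.55 around dawn, had a difference of 0.05 by day, which left 2.50 ± 0.29, adjusted p = 0.000306. In FPKM, CAB1R at ZT27, 3 h after dawn, measured 2933 in LY2186 and 3142 in MH86. LHCA4 gave 2.67 ± 0.29, adjusted p = 0.000157, and LHCA2, a further photosystem I antenna gene, gave 1.74 ± 0.23, adjusted p = 0.0017. These 4 calls and those of LHCA3 and LHCB6 held without any 1 pair. Those of LHCB3 and LHCB5 were lost without the ZT0, ZT24 or ZT48 pair, with adjusted p up to 0.148 and 0.0723. LHCB4 was lost without ZT24 or ZT48, with adjusted p up to 0.0607. LHCB1-like (LOC_Os01g52240) took another course. Its difference was 1.54 around dawn and 1.95 by day, and the test of dawn against day gave an adjusted p of 0.823.

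**Figure D3:**
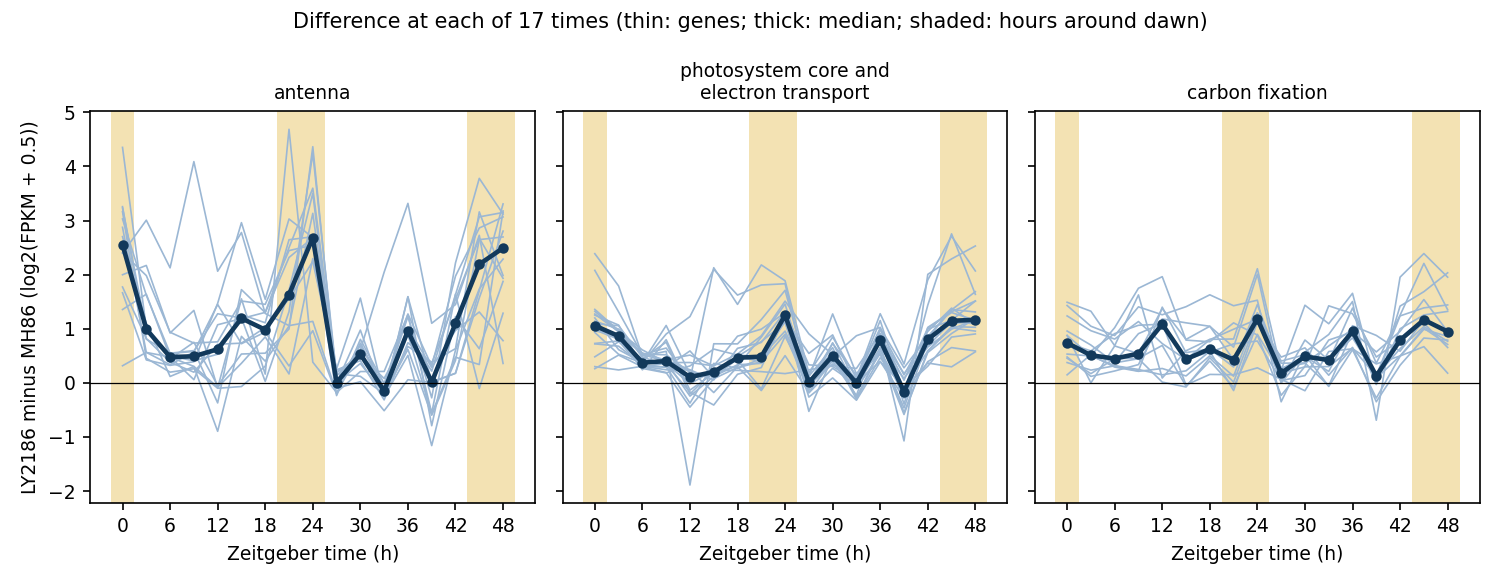
LY2186 minus MH86 in log2(FPKM + 0.5) (vertical axis) at each of 17 Zeitgeber times (horizontal axis, h) for antenna, photosystem core and electron transport, and carbon fixation genes, with thin lines for genes, a thick line for their median and shading on the 5 hours around dawn. The antenna median stands between 1.63 and 2.69 in the shaded hours and at or under 1.19 in all others.

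Against dusk and night, 41 genes (0.243%) had a different LY2186 minus MH86 difference around dawn, 30 of them (0.178% of the genes tested) higher at dawn, and 5 of these were antenna genes. CAB1R led them with 2.49 ± 0.29, adjusted p = 0.000976, ahead of LHCA4 (2.2 ± 0.29, adjusted p = 0.00392), LHCB3 (2.13 ± 0.41, adjusted p = 0.0399) and LHCA1 (2.02 ± 0.22, adjusted p = 0.000954). LHCA2 was the fifth (1.18 ± 0.23, adjusted p = 0.0402). CAB1R, LHCA1 and LHCA4 stayed called with any 1 pair left out. LHCB3 and LHCA2 were lost without the ZT0, ZT24 or ZT48 pair, each with an adjusted p of up to 0.151. The number of antenna calls was 3 without ZT0, ZT24 or ZT48 and 8 without ZT21 or ZT45. Over all genes, the balance of the calls moved with the pairs before dawn: without ZT45, 270 genes differed between dawn and day, 49.3% of them higher at dawn in place of 66.7%, and 272 between dawn and night, 33.1% in place of 73.2%. The share against night was 53.0% without ZT21. Without ZT45 and ZT48 the shares were 40.1% and 26.6%, and with upper-quartile scaling 51.4% and 63.0%. The antenna calls were 8 against day and 5 against night without ZT45 and ZT48. With no block by hour, 0 of the 14 antenna genes were called against day and 0 against night; over all genes limma then called 9 and 0, with 494 and 521 at an unadjusted p under 0.05. The count against day was 70 without ZT0, 29 without ZT24 and 60 without ZT48; against night it was 16, 7 and 20, and 132 without ZT21.

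Within the hours around dawn, the libraries before dawn (ZT21 and ZT45) were set against ZT0, ZT24 and ZT48, and 2 genes (0.0119%) differed. LHCB2 was one, with a LY2186 minus MH86 difference of 0.67 before dawn and 3.97 at dawn (-3.30 ± 0.43, adjusted p = 0.00843 for before minus at dawn). The call ended without the ZT21, ZT24 or ZT45 pair (adjusted p up to 0.105). The other was LOC_Os04g24520, named because it was the other of 2 calls, with differences of 8.0 and 9.23 at ZT21 and ZT45 and between 0.52 and 2.67 at ZT0, ZT24 and ZT48, in which 2 of the 10 values are zeros that neighbouring hours make doubtful. It was no longer called with such zeros taken as missing, when 1 gene was left. An unadjusted p under 0.05 was reached by 1090 genes. For the antenna list as a whole the median difference was 2.0 before dawn and 2.70 at dawn.

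**Figure D4:**
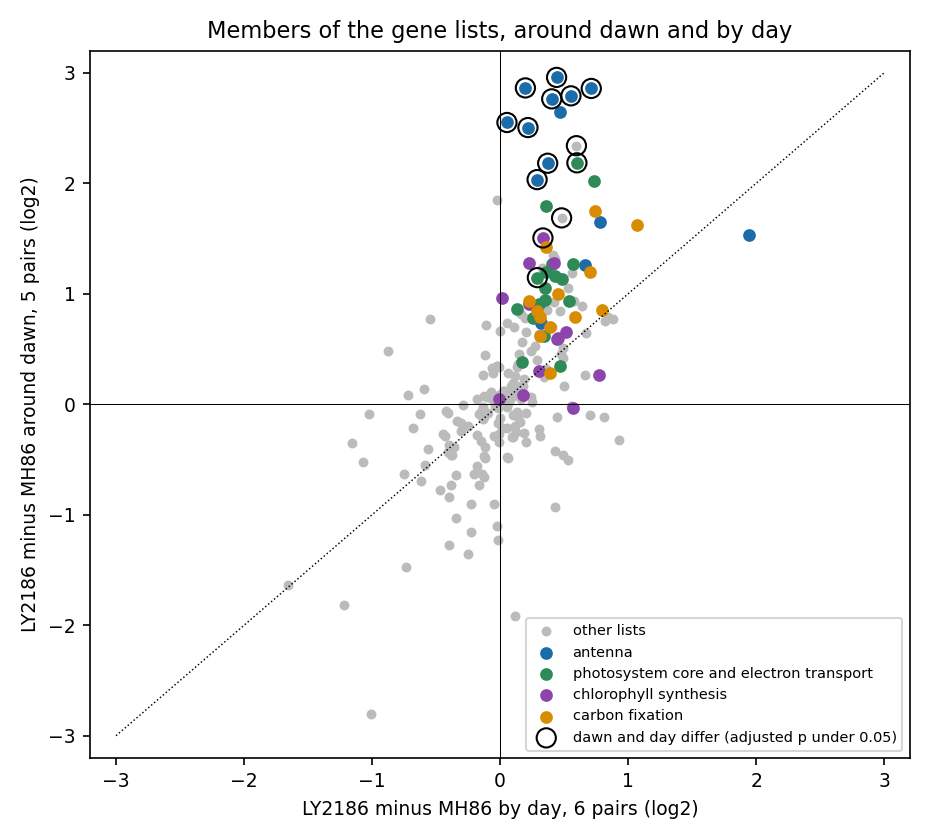
LY2186 minus MH86 (log2) around dawn (vertical axis, 5 pairs) against that by day (horizontal axis, 6 pairs) for tested members of the gene lists, 1 point per gene, with the dotted line marking equal differences. Circled genes are the 14 list members whose difference between dawn and day passed limma's test, 9 of them antenna genes, and all lie above the line.

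Nuclear genes of the photosystem cores and of electron transport were higher in LY2186 by less. Of 18 tested, 15 were called higher and none lower, beside 8.82% and 8.05% of all genes. In 5 of 5 pairs 16 were higher, beside 14% of all genes, and the median difference was 1.09. PSAO (LOC_Os04g33830), a photosystem I subunit, measured 1896, 239.7, 1143, 171 and 777 FPKM in LY2186 and 448, 52.5, 309, 25.6 and 185 FPKM in MH86 (2.19 ± 0.14, adjusted p = 0.000111). Both lines were lowest at ZT45, and LY2186 was higher at each hour. PSBP (LOC_Os07g04840), part of the oxygen-evolving complex of photosystem II, was apart in the 2 lines, at 757 to 1591 FPKM in LY2186 and 296 to 636 FPKM in MH86 (1.27 ± 0.12, adjusted p = 0.00104). PSAE, PSAH, PSBO and PSBQ also had every LY2186 value above every MH86 value, which made 5 of 18, beside 3.73% of all genes. PETE, which encodes the electron carrier plastocyanin, had means of 471 FPKM against 190.3 FPKM (1.27 ± 0.13, adjusted p = 0.00118), and PSAN, a lumenal photosystem I subunit, 786 FPKM against 357 FPKM (1.15 ± 0.11, adjusted p = 0.000979). The 3 genes that did not pass were both ferredoxin-NADP reductase genes, FNR1 (0.38 ± 0.14, adjusted p = 0.104) and FNR2 (0.62 ± 0.20, adjusted p = 0.0718), and the ATP synthase gene ATPD (0.35 ± 0.10, adjusted p = 0.0585).

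The median of this group was 0.36 by day and 0.33 at dusk and night. PSAO and PSAN were called in the test of dawn against day, at 1.59 ± 0.33, adjusted p = 0.0351 and 0.86 ± 0.19, adjusted p = 0.0472. Neither was firm: PSAO lost its call without the ZT0, ZT24 or ZT48 pair (adjusted p up to 0.0838) and PSAN with each of the 5 pairs left out (up to 0.139). The 15 calls around dawn were 15 to 17 with 1 pair left out and 8 without ZT45 and ZT48. With no filter on low values they were 10, and with no block by hour 7. PSAO, PSBP, PETE and PSAN stayed called whichever pair was left out.

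Among 13 genes of chlorophyll synthesis, 4 were higher in LY2186 and none was lower, beside 8.82% and 8.05% of all genes. The median difference was 0.60. The 4 stand at separate steps. HEMA1 (LOC_Os10g35840) encodes glutamyl-tRNA reductase, the first committed step, and measured 197, 130.1, 187, 106 and 134 FPKM in LY2186 and 76.8, 49.9, 65.3, 48.6 and 65.1 FPKM in MH86. No LY2186 value fell within the MH86 range, and the difference was 1.28 ± 0.10, adjusted p = 0.000409. CHLH (LOC_Os03g20700), the large subunit of the magnesium chelatase that turns the pathway to chlorophyll, measured 192, 50.5, 232, 45.9 and 173 FPKM in LY2186 and 83.4, 20.0, 68.8, 12.1 and 65.9 FPKM in MH86 (1.51 ± 0.12, adjusted p = 0.000467). CRD1, of the cyclase step, had means of 740.2 FPKM against 302 FPKM (1.28 ± 0.20, adjusted p = 0.00667). CAO1, which makes the chlorophyll b that antenna proteins need, had 371 FPKM against 222 FPKM (0.96 ± 0.19, adjusted p = 0.0161). The other chelatase subunits were CHLD at 0.30 and CHLI at 0.60, neither called. PORA, the protochlorophyllide reductase of dark-grown seedlings, was under 1 FPKM on average in both lines. The dawn difference of CHLH exceeded that by day by 1.17 ± 0.17, adjusted p = 0.00329, with any 1 pair left out as well. No left-out pair ended the call of HEMA1, CHLH or CRD1. The test was no longer passed by CAO1 without the ZT24 pair (adjusted p = 0.0539). The count of 4 became 8 without ZT21, 3 without ZT24, 2 without ZT45 and ZT48, and 2 with no filter on low values. It was 1 with no block by hour. The median was 0.28 without ZT45 and ZT48, and at single hours it ran from -0.07 at ZT21 to 1.09 at ZT45.

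Carotenoids start from plastid isoprenoids, and the gene of the entry enzyme, DXS1 (LOC_Os05g33840), had the largest difference of its list of 10. It stood at 79.2, 27.5, 88.8, 18.2 and 49 FPKM in LY2186 and 21, 6.51, 12.6, 2.75 and 8.16 FPKM in MH86. LY2186 was higher at each hour, with 2.34 ± 0.15, adjusted p = 0.00012. PSY2, one of the phytoene synthases that commit the pathway to carotenoids, was higher by 1.35 ± 0.21, adjusted p = 0.0072, and LCYB, the lycopene cyclase on the way to beta-carotene, by 0.78 ± 0.14, adjusted p = 0.0121. PSY1 gave 0.45 ± 0.14, adjusted p = 0.0626. Of the 10, 3 were called higher and none lower, beside 8.82% and 8.05% of all genes, and the median was 0.35. DXS1 passed the tests of dawn against day (1.74 ± 0.28, adjusted p = 0.0083) and dawn against night (1.52 ± 0.28, adjusted p = 0.0305), the second of which was lost without ZT24 or ZT48 (adjusted p up to 0.127). DXS1, PSY2 and LCYB stayed called whichever pair was left out. The count of 3 was 1 without ZT45 and ZT48, where the median was 0.18, 1 with no filter on low values and 2 with no block by hour.

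Carbon fixation genes were higher in LY2186 in 11 of 13 cases and lower in none, beside 8.82% and 8.05% of all genes. Their median was 0.86. PGK (LOC_Os05g41640), a phosphoglycerate kinase, differed little from hour to hour and stood at 217, 191, 155, 215 and 186 FPKM in LY2186 and 91.9, 95.9, 68.1, 89.9 and 74 FPKM in MH86. The 2 lines did not overlap (1.20 ± 0.09, adjusted p = 0.000329). GAPA, a subunit of the chloroplast glyceraldehyde-3-phosphate dehydrogenase, had means of 250.5 FPKM against 77.2 FPKM (1.63 ± 0.19, adjusted p = 0.00234). For the small subunit of Rubisco, RBCS2 stood at 4156, 1302, 2810.5, 2256 and 3863 FPKM in LY2186 and 1542, 484, 974, 429.9 and 997 FPKM in MH86 (1.75 ± 0.17, adjusted p = 0.00112) and RBCS3 at 472 to 739 FPKM in LY2186 and 219 to 465 FPKM in MH86 (0.86 ± 0.13, adjusted p = 0.00579). The RBCS genes are near-identical copies, so their separate values are uncertain. RCA, the activase that keeps Rubisco working, was higher by 1.42 ± 0.25, adjusted p = 0.0113. TPI (0.29 ± 0.11) and TKT (0.62 ± 0.17) were not called. No member passed the test of dawn against day or night: the median was 0.39 by day and 0.65 at dusk and night. With each pair left out in turn, PGK, GAPA, RBCS2 and RBCS3 stayed called in all 5 fits. The count of 11 fell to 6 without ZT24, 7 without ZT45 and 6 without ZT48, and to 2 without ZT45 and ZT48. With no filter on low values it was 5, as it was with no block by hour.

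Photorespiration, which salvages the product of Rubisco's reaction with oxygen, had 6 of 11 genes higher and none lower, at a median of 0.64. Of all genes, 8.82% were higher and 8.05% lower. PGLP1, the phosphatase at its entry, stood at 186, 64.1, 240.2, 144 and 236 FPKM in LY2186 and 87.7, 47.6, 68.6, 55.4 and 97.3 FPKM in MH86 (1.19 ± 0.19, adjusted p = 0.00724). GLYK, the kinase at its end, lay at 33.8 to 62.4 FPKM in LY2186, above all of the 24.7 to 33.1 FPKM in MH86 (0.73 ± 0.12, adjusted p = 0.00828). GGAT1, an aminotransferase of the peroxisome, was higher by 0.53 ± 0.11, adjusted p = 0.0197, and GDCP, the glycine decarboxylase P protein of the mitochondrion, by 0.70 ± 0.15, adjusted p = 0.0238. The peroxisomal enzymes GLO1 (0.17), CATC (0.08), SGAT (-0.08) and HPR1 (0.15) were not called. PGLP1 and GLYK stayed called whichever pair was left out. The call was lost for GGAT1 without the ZT0, ZT24 or ZT48 pair (adjusted p = 0.0541 to 0.0812) and GDCP without the ZT0, ZT24, ZT45 or ZT48 pair (adjusted p = 0.0593 to 0.0799). Only 2 genes of the list were called without ZT0, ZT24 or ZT48, 3 without ZT45 and none without ZT45 and ZT48; with no filter on low values 1 was, and with no block by hour 3 were.

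Among regulators of chloroplasts and light responses, GLK1 (LOC_Os06g24070), a transcription factor that activates antenna and chlorophyll genes, stood at 274, 130.4, 324, 169 and 305 FPKM in LY2186 and 207, 63.3, 186, 75.9 and 212 FPKM in MH86. LY2186 was higher at each hour, by 0.78 ± 0.14, adjusted p = 0.0111. Its relative GLK2 gave 0.34 ± 0.13, adjusted p = 0.111. Cga1, a GATA factor of chloroplast development, was at 27.2 to 43.1 FPKM in LY2186 and 17.6 to 26.2 FPKM in MH86, without overlap, but did not pass the test (0.42 ± 0.12, adjusted p = 0.0598). Of 10 photoreceptor and light-signalling genes PIL13, a phytochrome-interacting factor, was the one called (32.3, 10.9, 36.9, 17.2 and 35.8 FPKM in LY2186 and 18.6, 8.16, 13.7, 6.12 and 14.5 FPKM in MH86; 1.05 ± 0.17, adjusted p = 0.00815). This 1 call among 10 stands beside 16.9% of all genes. The phytochromes PHYA, PHYB and PHYC lay between -0.25 and -0.10 and the cryptochromes CRY1a, CRY1b and CRY2 between 0.02 and 0.12, none called. No left-out pair ended the call of GLK1 or PIL13. Without ZT45 and ZT48 both missed the threshold (adjusted p = 0.0719 and 0.0857).

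In the clock, 3 of 13 genes were called around dawn, a count near the 16.9% of all genes, and the list median was -0.07. LHY (LOC_Os08g06110), the morning repressor, was higher in LY2186 at each hour, with 2723, 189, 3041, 453 and 3196 FPKM in LY2186 and 1785, 55, 1281, 92.5 and 2040.2 FPKM in MH86. Both lines were several times lower before dawn, and the pair differences were widest there, at 1.77 for ZT21 and 2.29 for ZT45 (log2), against 0.61 for ZT0; the mean was 1.31 ± 0.26, adjusted p = 0.0172. LUX/PCL1 (LOC_Os01g74020), a DNA-binding member of the evening complex, was lower in LY2186 at each hour, at 0.524, 21.7, 0.303, 17.4 and 1.19 FPKM in LY2186 and 1.58, 40.1, 3.13, 33.4 and 3.27 FPKM in MH86 (-1.23 ± 0.21, adjusted p = 0.00984). Before dawn its level was of the same order in both lines, and at dawn LY2186 held about 1 FPKM or less. ELF3-2 (LOC_Os01g38530), a scaffold of the same complex, measured 27.8, 82.4, 28, 63.1 and 33 FPKM in LY2186 and 55.5, 96.4, 92.7, 85.6 and 74.7 FPKM in MH86 (-0.91 ± 0.21, adjusted p = 0.0302). Its paralogue ELF3-1 was at 0.17 ± 0.08, adjusted p = 0.218. PRR1/TOC1, an evening pseudo-response regulator, was lower in 5 of 5 pairs, as were 2689 of all genes (16%), and missed the threshold (-0.66 ± 0.20, adjusted p = 0.0645).

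The remaining clock genes were not called. PRR59 and PRR95, pseudo-response regulators, gave -0.15 ± 0.14 and -0.34 ± 0.17. PRR73 (0.10), PRR37 (0.05), GI (-0.03) and FKF1 (-0.08) averaged under 1 FPKM in both lines around dawn. The F-box genes ZTL-like-1 and ZTL-like-2 gave -0.07 ± 0.10 and 0.12 ± 0.10. No clock gene passed the tests of dawn against day, dawn against night, or before dawn against dawn. With each pair left out in turn, LUX/PCL1 stayed called in all 5 fits. Calls that ended were those of LHY without the ZT24 pair (adjusted p = 0.0579) and ELF3-2 without the ZT0, ZT24 or ZT48 pair (adjusted p = 0.066 to 0.0909). Without ZT45 and ZT48 none of the 3 was called (adjusted p = 0.0656, 0.119 and 0.0736 for LHY, ELF3-2 and LUX/PCL1), and with no filter on low values the list had 0 higher and 1 lower. Without the block by hour it had 0 higher and 0 lower. In SE21s, whose libraries enter no test here, the 5 values were 3487, 1692, 3183, 1773 and 4175 FPKM for LHY, 0.388, 0.559, 0.16, 1.77 and 1.02 FPKM for LUX/PCL1 and 539, 395, 376, 212 and 349 FPKM for LHCA1.

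Most starch genes were not called. Of 16 genes of starch synthesis 3 were higher, 2 were lower and 11 were not called, with a median of 0.00, beside 8.82% higher and 8.05% lower of all genes. GBSSII (LOC_Os07g22930), the granule-bound starch synthase of leaves, stood at 70.7, 6.52, 114, 18.4 and 119 FPKM in LY2186 and 35.1, 2.08, 21.8, 2.68 and 32.1 FPKM in MH86 (1.85 ± 0.23, adjusted p = 0.00316). Its levels before dawn were low in both lines and LY2186 was higher at each hour. Subunits of ADP-glucose pyrophosphorylase parted ways: AGPL3 was at 69.6 to 118 FPKM in LY2186, above the 40.2 to 61.7 FPKM of MH86 (0.84 ± 0.17, adjusted p = 0.0176), and AGPL2 at 18 to 35.4 FPKM, below the 40.9 to 52 FPKM of MH86 (-0.78 ± 0.15, adjusted p = 0.0159). Such a wholly lower range was found for 4.19% of all genes. SSIIIb was higher (0.72 ± 0.14, adjusted p = 0.0144) and SSIVb, named because it was called though outside the naming rule, lower (-0.63 ± 0.13, adjusted p = 0.0178); both are starch synthases. In starch breakdown 1 of 10 was called, beside 16.9% of all genes: MEX1, the maltose exporter of the chloroplast (0.51 ± 0.11, adjusted p = 0.0207). No left-out pair ended the call of GBSSII. The test was no longer passed by AGPL3 without the ZT24 pair (adjusted p = 0.0634), AGPL2 without the ZT0, ZT24 or ZT48 pair (adjusted p = 0.0506 to 0.054) and SSIIIb without the ZT24 or ZT48 pair (adjusted p = 0.0511 to 0.0531). Nor was it passed by MEX1 without the ZT0, ZT24 or ZT45 pair (adjusted p = 0.0587 to 0.0747). Starch synthesis had 1 higher and 2 lower without the block by hour, 1 higher and 1 lower without ZT45 and ZT48, and 0 higher and 0 lower with no filter on low values.

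Of 14 sucrose genes 3 were higher in LY2186 and none lower, beside 8.82% and 8.05% of all genes. The cytosolic fructose-bisphosphatase gene cytFBPase, an early step of sucrose synthesis, measured 240.4, 191, 232, 272 and 251 FPKM in LY2186 and 160.4, 116, 126, 150.2 and 213 FPKM in MH86 (0.66 ± 0.12, adjusted p = 0.0136). Of the sucrose-phosphate synthases, SPS11 was higher by 0.75 ± 0.16, adjusted p = 0.0203 and SPS1 by 0.57 ± 0.13, adjusted p = 0.0253. Nitrogen genes gave 2 higher and 1 lower of 11, beside those same shares. NADH-GOGAT1, a glutamate synthase, was the lower one, at 16.2, 25.3, 13, 15.8 and 15.1 FPKM in LY2186 and 24.7, 36.9, 31.5, 33.3 and 32.3 FPKM in MH86 (-0.90 ± 0.13, adjusted p = 0.00542). Cytosolic glutamine synthetase GS1;2 was higher (0.66 ± 0.16, adjusted p = 0.0298), as was nitrate reductase NIA2 (0.89 ± 0.21, adjusted p = 0.0311), the latter at under 6 FPKM in every library. With each pair left out in turn, NADH-GOGAT1 stayed called in all 5 fits. Calls that ended were those of cytFBPase without the ZT24 pair (adjusted p = 0.0547), SPS11 without the ZT0, ZT24, ZT45 or ZT48 pair (adjusted p = 0.0506 to 0.0661) and SPS1 without the ZT0, ZT24 or ZT45 pair (adjusted p = 0.0608 to 0.0761). They also included GS1;2 without the ZT0, ZT24, ZT45 or ZT48 pair (adjusted p = 0.0505 to 0.0793) and NIA2 without the ZT0, ZT21, ZT24, ZT45 or ZT48 pair (adjusted p = 0.0535 to 0.0928). The sucrose list had 1 higher and 1 lower without ZT45 and ZT48, and the nitrogen list 0 higher and 0 lower. With no filter on low values the sucrose list had 0 higher and 0 lower and the nitrogen list 0 higher and 0 lower, and without the block by hour 1 higher and 0 lower, and 0 higher and 1 lower.

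Genes of chlorophyll breakdown divided. SGRL (LOC_Os04g59610), a stay-green-like gene of chlorophyll metabolism, was higher in LY2186, at 74.2, 15.1, 50.1, 17.8 and 44.1 FPKM in LY2186 and 27.6, 3.65, 15.6, 3.55 and 17.6 FPKM in MH86 (1.69 ± 0.14, adjusted p = 0.000517). Its difference around dawn exceeded that by day by 1.21 ± 0.24, adjusted p = 0.0289, which was lost without ZT24 (adjusted p = 0.0821). RCCR1, which acts late in breakdown, was lower, at 63.8, 71.7, 67, 86.2 and 84.3 FPKM in LY2186 and 102, 112, 111, 122 and 128 FPKM in MH86, without overlap (-0.63 ± 0.08, adjusted p = 0.00415). SGR, the stay-green magnesium dechelatase of senescing leaves, was lower too, at 3.55, 3.68, 18.2, 2.76 and 6.93 FPKM in LY2186 and 15.8, 28.9, 18.3, 25.2 and 17.6 FPKM in MH86 (-1.82 ± 0.44, adjusted p = 0.0361). At ZT24 the 2 lines were within 1 FPKM of each other for SGR. NAP, a NAC factor of leaf senescence, gave -0.70 ± 0.22, adjusted p = 0.0713. The list had 1 of 8 higher and 2 lower, beside 8.82% and 8.05% of all genes. SGRL and RCCR1 stayed called whichever pair was left out. The call was lost for SGR without the ZT0, ZT21, ZT45 or ZT48 pair (adjusted p = 0.0632 to 0.117). The list had 1 higher and 1 lower without ZT45 and ZT48 and 0 higher and 2 lower without the block by hour.

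Antioxidant genes had 1 of 7 higher and 3 lower, beside 8.82% and 8.05% of all genes. The thylakoid ascorbate peroxidase APX8 was at 218, 161, 238, 209 and 223 FPKM in LY2186 and 122, 107, 111, 97.6 and 109 FPKM in MH86, without overlap (0.93 ± 0.11, adjusted p = 0.00241). The other chloroplast form, stromal APX7, was lower, at 2.53, 2.81, 3.29, 3.72 and 2.57 FPKM in LY2186 and 3.64, 16.6, 14, 9.06 and 7.79 FPKM in MH86 (-1.48 ± 0.27, adjusted p = 0.0126), as were the cytosolic APX1 (-0.64 ± 0.15, adjusted p = 0.0315) and the catalase CATB (-0.46 ± 0.09, adjusted p = 0.0142). No left-out pair ended the call of APX8 or APX7. The test was no longer passed by APX1 without the ZT0, ZT24, ZT45 or ZT48 pair (adjusted p = 0.0555 to 0.106) and CATB without the ZT0 pair (adjusted p = 0.0566). The list had 1 higher and 0 lower without ZT45 and ZT48, 1 higher and 1 lower with no filter on low values and 1 higher and 1 lower without the block by hour.

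Defence genes had 3 of 8 lower in LY2186 and none higher, beside 8.05% and 8.82% of all genes. Their median was -0.63, beside -0.05 for all genes. WRKY62 (LOC_Os09g25070) stood at 8.37, 0.803, 0.817, 0.497 and 0.563 FPKM in LY2186 and 16.5, 6.33, 3.21, 3.58 and 6.4 FPKM in MH86 (-1.91 ± 0.26, adjusted p = 0.0043). Both lines peaked at ZT0. Its neighbour on the chromosome by locus number, WRKY76, was at 0 to 1.32 FPKM in LY2186 and 0.696 to 3.33 FPKM in MH86 (-1.16 ± 0.16, adjusted p = 0.00427); both are known in rice as repressors of defence. WRKY45, an activator of salicylic acid defence, was lower in 4 of 5 pairs (-0.93 ± 0.25, adjusted p = 0.0456). PR1b, a pathogenesis-related gene, gave -1.63 ± 0.68, adjusted p = 0.155. With each pair left out in turn, WRKY62 and WRKY76 stayed called in all 5 fits. Calls that ended were those of WRKY45 without the ZT21, ZT24, ZT45 or ZT48 pair (adjusted p = 0.0982 to 0.115). Without ZT45 and ZT48 the list had 0 higher and 0 lower, and its median was 0.01. It had 0 higher and 1 lower with no filter on low values and 0 higher and 0 lower without the block by hour.

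Among 5 heat shock genes 3 were lower and 1 higher, beside 8.05% and 8.82% of all genes. HSFA2c, a heat shock factor, was at 21.3 to 29.2 FPKM in LY2186, below the 33.3 to 39.9 FPKM of MH86 (-0.63 ± 0.11, adjusted p = 0.0122). BIP1, a chaperone of the endoplasmic reticulum, was lower without overlap as well (-0.55 ± 0.14, adjusted p = 0.0358), as was HSP81-1, an HSP90 gene (-0.46 ± 0.13, adjusted p = 0.0468). Of all genes, 4.19% were wholly lower in this way. HSFA2d was higher (0.85 ± 0.13, adjusted p = 0.00617). Of the 4 cold and drought factors tested, DREB1A was the 1 called, beside 16.9% of all genes. It was higher, at 15, 14.3, 4.3, 7.92 and 13.6 FPKM in LY2186 and 5.29, 2.44, 3.12, 5.23 and 4.69 FPKM in MH86 (1.23 ± 0.28, adjusted p = 0.027). The abscisic acid 8'-hydroxylase ABA8OX2, which inactivates the hormone, was lower (-0.73 ± 0.17, adjusted p = 0.0278), the 1 call among 4 genes, beside 16.9% of all genes. None of 9 jasmonate genes was called, beside 16.9% of all genes, with TIFY11C at -1.36 ± 0.61 and JAR1 at 0.26 ± 0.08. HSFA2c and HSFA2d stayed called whichever pair was left out. The call was lost for BIP1 without the ZT0, ZT24 or ZT45 pair (adjusted p = 0.0734 to 0.109), HSP81-1 without the ZT0, ZT21, ZT24 or ZT48 pair (adjusted p = 0.0656 to 0.15) and DREB1A without the ZT0 or ZT48 pair (adjusted p = 0.0817 to 0.084). It was lost as well for ABA8OX2 without the ZT0, ZT21, ZT45 or ZT48 pair (adjusted p = 0.0631 to 0.0733). Heat shock genes had 1 higher and 1 lower without ZT45 and ZT48, 0 higher and 0 lower with no filter on low values and 0 higher and 1 lower without the block by hour.

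In the flowering list 1 of 10 was higher and 2 lower, beside 8.82% and 8.05% of all genes. COL4, a CONSTANS-like gene, was at 123, 18.8, 48.1, 13.9 and 37.6 FPKM in LY2186 and 55.6, 7.65, 29.9, 7.37 and 23 FPKM in MH86 (0.93 ± 0.11, adjusted p = 0.00287). Ehd1, a response regulator that promotes flowering in rice, was lower at each hour, with 3.94, 2.23, 3.1, 2.28 and 5.26 FPKM in LY2186 and 6.21, 3.31, 8.2, 4.58 and 10.9 FPKM in MH86 (-0.84 ± 0.15, adjusted p = 0.0117). MADS15, a meristem identity gene also read in leaves, was lower in 4 of 5 pairs (-1.10 ± 0.25, adjusted p = 0.026), and at ZT0 the lines were level, at 231 FPKM and 226 FPKM. Hd1, the rice CONSTANS, gave -0.49 ± 0.19, adjusted p = 0.12. Of 5 genes of phosphate status only 2 were tested. Both were higher, beside 8.82% of all genes: SPX2 (0.46 ± 0.11, adjusted p = 0.0288) and SPX1 (0.40 ± 0.10, adjusted p = 0.0386). The aquaporin PIP2;1 was higher (0.49 ± 0.09, adjusted p = 0.0142), the 1 call among 8 genes, beside 16.9% of all genes. No left-out pair ended the call of COL4 or Ehd1. The test was no longer passed by MADS15 without the ZT21, ZT24, ZT45 or ZT48 pair (adjusted p = 0.0537 to 0.0884), SPX2 without the ZT0, ZT21, ZT24 or ZT45 pair (adjusted p = 0.0525 to 0.0995) and SPX1 without the ZT0, ZT24, ZT45 or ZT48 pair (adjusted p = 0.0684 to 0.125). Nor was it passed by PIP2;1 without the ZT0 or ZT24 pair (adjusted p = 0.0527 to 0.0598). The flowering list had 2 higher and 0 lower without ZT45 and ZT48, 1 higher and 0 lower with no filter on low values and 0 higher and 0 lower without the block by hour.

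Outside the lists, the identifiers with the smallest adjusted p were read in LY2186 and hardly in MH86. LOC_Os02g12480 stood at 454, 557, 510.5, 776 and 472 FPKM in LY2186 and 0.0644, 0.418, 0.261, 0.292 and 0.463 FPKM in MH86, and LOC_Os11g47370 at 45.1, 45.9, 47.9, 53.4 and 47.6 FPKM in LY2186 and 0, 0.0568, 0, 0 and 0.0388 FPKM in MH86. Their differences were 9.43 ± 0.15, adjusted p = 4.11e-07 and 6.54 ± 0.12, adjusted p = 4.11e-07, sizes that depend on the pseudocount where MH86 is near 0, and by day they were 9.21 and 6.14. For both, each SE21s library was above the LY2186 library of the same hour, at 762 to 1526 FPKM and 109 to 146 FPKM. In the other direction LOC_Os07g33480 was at 5.66 to 16.6 FPKM in LY2186 and 23.2 to 45.5 FPKM in MH86 (-1.73 ± 0.11, adjusted p = 0.000122), and LOC_Os07g46280 at 2.96 to 4.61 FPKM and 12.4 to 18.4 FPKM (-2.01 ± 0.13, adjusted p = 0.000139). The files hold no names for these identifiers, so no gene name or role is given for these 4.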

How the data were processed

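Values come from 1 deposited table of FPKM for 34653 rice locus identifiers in 51 libraries (strand-specific RNA sequencing, per the labels' protocols). Per the submitters' processing notes, the authors used TopHat2 and Cuffdiff; their versions, the build, the annotation and the handling of multiply mapped fragments were not given in the sources used here. FPKM scales fragments to transcript length and library size, so it keeps no depth: counts were not recovered, and low values place the size of 1 fragment in the other 9 libraries at 0.878 to 1.43 times that of LY2186 at ZT0. Precision cannot therefore be given as counting intervals. The table does not pair identifiers with names, and the reference gene table (ASM3414082v1) matched 0 of them; symbols are assigned from general knowledge of rice genes, and no sequence or coordinate is printed.

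Values were used as deposited, as log2(FPKM + 0.5), for genes averaging 1 FPKM or more across the 51 libraries; fold changes on this scale understate those of low genes. The dawn fit used limma 3.58.1 in R 4.3.3 on 10 libraries with the hour as a block, a variance prior that was trended and robust, and p-values (two-sided) adjusted by Benjamini-Hochberg over all 16842 genes, with a threshold of 0.05. Differences between dawn, day, and dusk and night, and between the hours before dawn and dawn, were line by period terms in fits on 34 libraries. Pairs share the hour given in the labels; LY2186 and MH86 libraries of the same hour deviated together from their line means, with correlations across genes of 0.255 to 0.465 in the 5 pairs, although for ZT21, ZT45 and ZT48 a library of another hour correlated more (up to 0.540). An exact test on 5 pairs could not go below p = 0.0625. A 0 was called doubtful where at least 2 neighbouring values (3 h before or after, or 24 h away) of that line reached 10 FPKM, and was kept.

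The 25 gene lists and the genes in them (254 genes, of which 250 were analysed and 227 tested) were chosen with earlier results of these data known. In each comparison the named genes are all tested clock genes, up to 4 members of each other list with the smallest adjusted p, and at most 2 identifiers per direction outside the lists with the smallest adjusted p among those of 1 direction in all 5 pairs; others named were chosen after their values were seen. Alternatives covered the pseudocount, the filter, scaling, the block, the prior, doubtful zeros, single pairs and subsets of hours. The steps were run on simulated data, with independent noise and added differences held constant over the hours around dawn. Change of a difference from hour to hour entered there only as noise.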

Additional observations from a re-analysis of the deposited data

Results flagged for a closer look

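In 5 pairs, 1 hour stood apart from the other 4 for 2 of the 108 named genes examined; chance alone marks about 1 in 20. For LUX/PCL1 the LY2186 minus MH86 difference at ZT24 was -2.18, below the other 4 hours. For HSFA2c the difference at ZT45 was -0.19, the smallest of its 5 in size.

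The difference between LY2186 and MH86 was not the same around dawn and by day (limma interaction, adjusted p under 0.05) for 14 list members, each higher in LY2186 around dawn by more. The excess, in log2 units, was CAB1R 2.50, LHCB3 1.81, LHCB4 2.15, LHCB5 2.36 and LHCB6 2.24 among photosystem II antenna genes and LHCA1 2.52, LHCA2 1.74, LHCA3 2.29 and LHCA4 2.67 among those of photosystem I. It was PSAN 0.86, PSAO 1.59, CHLH 1.17, DXS1 1.74 and SGRL 1.21 in other lists.

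Against dusk and night the excess around dawn was CAB1R 2.49, LHCB3 2.13, LHCA1 2.02, LHCA2 1.18 and LHCA4 2.2 for antenna genes and DXS1 1.52 in the carotenoid list. LHCB2 differed between the hours before dawn and dawn, by -3.30.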

How the results depend on the processing

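Around dawn, 2842 genes were called (1486 higher, 1356 lower). The count was 1206 with no filter on low values (697 higher, 509 lower; 942 of the 2842 among them), 1407 from ZT0, ZT24 and ZT48 alone (804, 603), 1067 from ZT21 and ZT45 alone with the spread of 34 libraries (626, 441) and 937 without ZT45 and ZT48 (540, 397), the last chosen after seeing the data. It was 4716 with the spread taken from 34 libraries (2108, 2608). With 1 pair left out it ran from 1400 to 2450 (826 to 1358 higher, 574 to 1092 lower), with 1516 (915, 601) without ZT0 and 1693 (967, 726) without ZT48. None of the 2842 changed sign in any of these. The filter and the source of the spread leave each difference as it was, so a sign could change only where pairs were left out. The genes looked at there had been called with those pairs included. Without the block that pairs libraries by hour, 1093 genes were called (558 higher, 535 lower), 1086 of them among the 2842.

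Dawn against day called 147 genes; this was 43 with no filter on low values, 90 with quantile scaling, 284 without ZT45 and ZT48 and 29 to 270 with 1 pair left out (70 without ZT0, 60 without ZT48). Dawn against dusk and night called 41; this was 65 with a pseudocount of 1, 12 with no filter, 173 without ZT45 and ZT48 and 7 to 272 with 1 pair left out (132 without ZT21, 16 without ZT0, 20 without ZT48). Before dawn against dawn called 2; this was 8 with no filter, 1 with doubtful zeros missing, 1 without ZT45 and ZT48 and 1 to 4 with 1 pair left out. Without the block these 3 tests called 9, 0 and 1 genes in limma, with 494, 521 and 154 at an unadjusted p under 0.05. Of 65 named genes called around dawn, 39 stayed called whichever pair was left out, 26 without ZT45 and ZT48 and 24 without the block. None changed sign, which dropping the block could not have brought about. The cause of these changes was not tested. With 1 library per line and hour and unknown depth, the counting error of low values is unknown.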

Other observations

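Presence or near absence of a transcript was one-sided between the 2 lines. Of 34653 identifiers, 32 reached at least 5 FPKM in all 5 LY2186 libraries around dawn and at most 0.1 FPKM in all 5 MH86 libraries, and 30 of these reached 5 FPKM in all 5 SE21s libraries as well. The reverse, at least 5 FPKM in MH86 and at most 0.1 in LY2186, was found for 0 identifiers. LY2186 carries MH86 alleles, so the design itself leaves little room for this reverse case.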
